A study of Mus musculus with 9 samples.

Results

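The genes described here are 138 genes of cultured mouse kidney cells that were lower after 6 h of TNF and stood back at the untreated level when the inhibitor ACHP was given with TNF. They were picked from 57010 genes in the count table by their measured values in CPM, a gene's count divided by its library's total count and scaled to a total of 1000000. A gene had to have a mean of at least 3 CPM with PBS, its highest TNF library below its lowest PBS library, and a TNF mean of at most 0.87 of the PBS mean. With ACHP added, its lowest library had to lie above the highest TNF library and its mean at 0.95 of the PBS mean or more. Of 11419 genes with the PBS minimum, 668 (5.85%) met the limits on the fall and 138 (1.21%) met all of them. The choice used all 3 contrasts between the groups, so the differences below describe the chosen genes and carry no test.

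The study sequenced total RNA from primary cultures of digested whole kidneys of wild-type mice, for which strain, age and sex are not given in the sources used here. Cultures received PBS as control, TNF at 20 ng/mL alone, or the same dose of TNF together with ACHP at 1 µM, and 3 libraries of each were collected at 6 h. All cultures were grown in serum-containing medium and replated for 24 h before treatment, and no group received ACHP without TNF. The labels number the replicates but do not say that they came from separate mice, so any spread between libraries may be technical. Because the cultures are a mixture, fewer cells of a type and less RNA per cell cannot be told apart in any of the values.

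TNF is an inflammatory cytokine whose receptor activates the IKK kinases, which release the transcription factor NF-kB to switch on cytokine, chemokine and adhesion genes. ACHP is an inhibitor of IKK beta and is used to block that step. Genes that TNF lowers are less often described than its induced targets, and in kidney epithelium they are known to include transporters and other genes of the differentiated cell.

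The falls were modest, and many lay near the limit of 0.87 set by the rule, with 44 ratios between 0.85 and 0.87. The TNF mean of the 138 genes lay between 0.688 and 0.869 of the PBS mean, with a median of 0.841, and 39 genes were below 0.80 and 12 below 0.75. The mean with ACHP was 1.102 to 1.57 times the TNF mean, with a median of 1.22, and 0.9502 to 1.27 times the PBS mean, with a median of 0.995. Over all 11419 genes with the PBS minimum the corresponding medians were 0.992, 1.01 and 1.00. The median coefficient of variation was 5.72% with PBS, 4.63% with TNF and 5.94% with ACHP, in genes that the rule kept for groups that do not overlap. The PBS mean was under 10 CPM in 30, between 10 and 100 in 90 and above 100 in 18, and the lowest count in any library was 29.

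**Figure D1:**
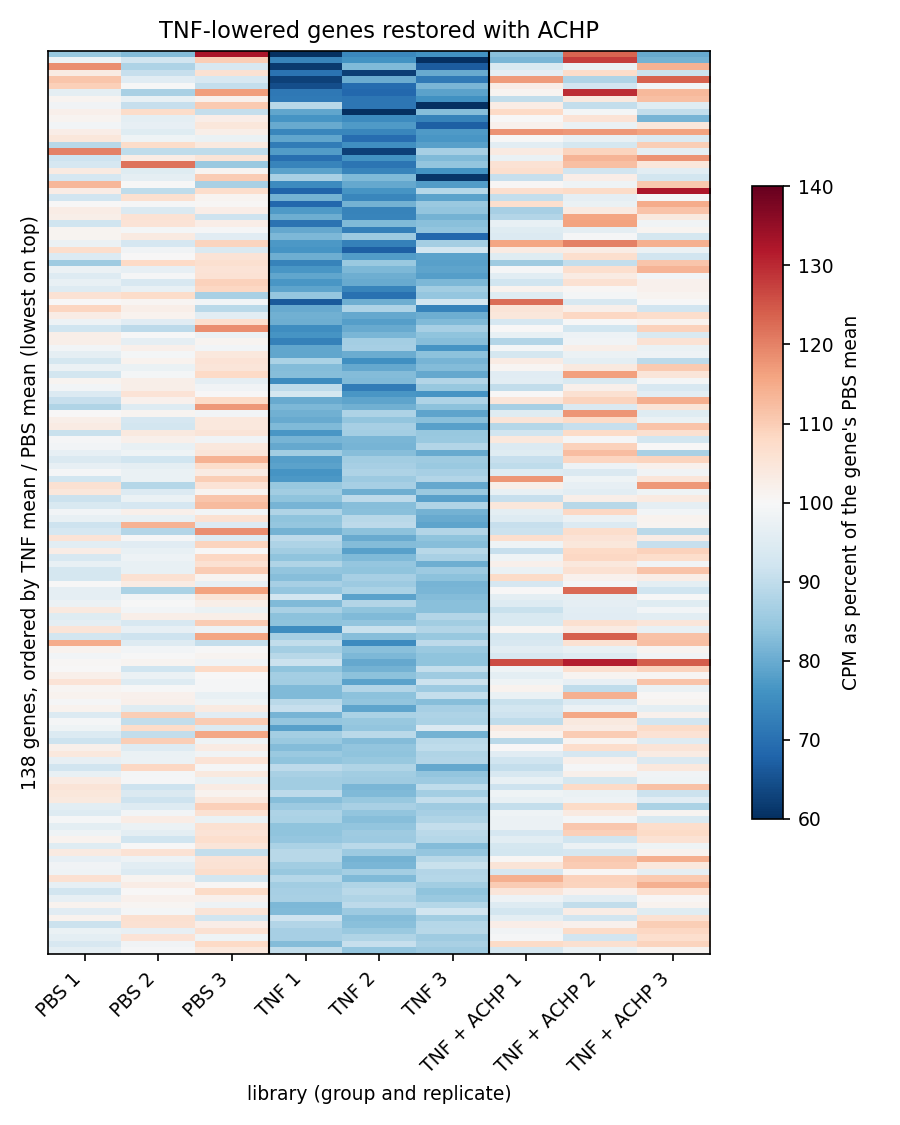
Each row is 1 of the 138 genes and each column a library; colour gives the CPM as a percent of the gene's PBS mean, from 60 (blue) to 140 (red), and rows run from the lowest TNF-to-PBS ratio (0.688) to the highest (0.869). The 3 TNF columns are blue throughout because the rule requires it, and red rows with ACHP mark genes whose level passed that of PBS.

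Averaged over the 138 genes, the PBS libraries stood at 98.8%, 98.4% and 102.7% of each gene's PBS mean. The TNF libraries stood at 81.6%, 81.4% and 83.4%, and the libraries with ACHP at 97.9%, 102.9% and 102.1%. Library 3 was the highest PBS library in 73 of the genes and the highest TNF library in 64, and library 1 was the lowest ACHP library in 71. How many genes were found depended on the libraries used: without TNF library 1 the same limits found 223 genes, without TNF library 3 they found 247, and without any other library at most 192.

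Few TNF-lowered genes behaved this way. Of the 668, 138 (20.7%) met the limits on the return, 117 lay clear of all TNF libraries but stopped short of 0.95 of the PBS mean, and 413 did not clear the TNF libraries. A group of 232 (34.7%) stayed low, with every ACHP library below every PBS library and a mean of at most 0.87. These 232 had a median TNF-to-PBS ratio of 0.783 and a median ACHP-to-TNF ratio of 0.989. With the limits turned round, 437 genes were raised by TNF and 167 of them (38.2%) were brought back by ACHP.

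**Figure D2:**
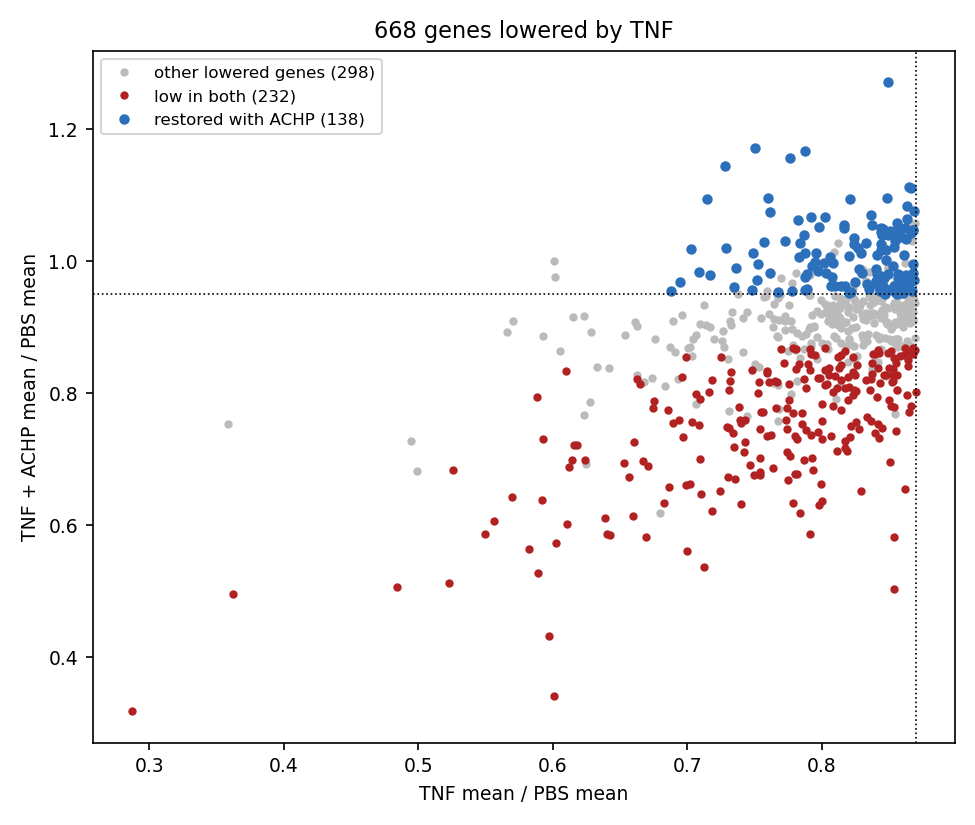
Each point is 1 of the 668 genes lowered by TNF, with the TNF mean over the PBS mean on the x axis and the mean with ACHP over the PBS mean on the y axis (both linear); dotted lines mark the limits of 0.87 and 0.95. The 138 chosen genes (blue) lie at ratios of 0.688 or more on the x axis, and the 232 genes that stayed low (red) reach further left.

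The limits cut through a continuous range. The genes just inside the limit on the fall were Tada3, Slc25a39 and Trafd1, at 0.8680, 0.8685 and 0.8686, and those just outside were Fam81a, Pcdh19 and Lurap1, at 0.8703, 0.8705 and 0.8707. In all, 408 genes missed the fall limit alone. At the limit on the return, Gtf2a1, Hoxd8 and Sypl stood inside at 0.9502, 0.9504 and 0.9516, and Rnf152, Btbd2 and Suox outside at 0.9499, 0.9488 and 0.9486.

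Across all 14747 genes that passed a filter on low counts, edgeR's quasi-likelihood test called 429 genes (2.91%) lower with TNF at a Benjamini-Hochberg adjusted p under 0.05, and 66 of the 138 were among them, while the genes called higher were 3.31% of all. With ACHP against TNF it called 400 genes (2.71%) higher, 80 of the 138 among them, and 4.46% lower. In all, 61 of the 138 were called in both. Both contrasts were used to choose the genes and both rest on the same TNF libraries, so nothing is read from these counts. The median log2 fold change of the 138 was -0.24 with TNF (range -0.55 to -0.19) and 0.29 with ACHP against TNF (0.13 to 0.65), with a median standard error of 0.07, where the medians of all genes were -0.00 and 0.00. The first count was 43 without PBS library 3, 36 without TNF library 1 and 33 without TNF library 2. The other was 43, 42 and 53 without TNF library 1, 2 and 3, 44 and 51 without ACHP library 2 and 3, and 45 with DESeq2. A term was also fitted for the libraries with the highest neuron sums, given further on: PBS libraries 2 and 3 and all TNF libraries. With that term the count higher with ACHP was 15, and the 400 genes became 44. No ACHP library has the term, so ACHP against TNF then depends on how PBS library 1 differs from PBS libraries 2 and 3. Nothing is read from this drop.

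The genes are described by the known roles of their products, which were not tested for enrichment, beginning with secreted proteins and receptors. Gdf15, a stress-induced secreted cytokine of the TGF-beta superfamily (ENSMUSG00000038508, GRCm39 chromosome 8, 71082043 to 71085106), had 125, 113 and 151 CPM in the 3 PBS libraries, 92.4, 89.0 and 102 after TNF and 131, 168 and 146 with ACHP. All 3 TNF libraries were below all others, and the ACHP libraries spanned the upper PBS range and beyond, with a mean of 72.8% of PBS with TNF and 115% with ACHP. Its log2 fold change from the edgeR fit was -0.45 ± 0.09 with TNF. With ACHP against TNF it was 0.65 ± 0.09, the highest among the 138 in that contrast. Here and below, ± gives a standard error worked out from the fold change and the test's F statistic. Lipg, a secreted lipase that acts on lipoprotein phospholipids, had 66.7, 64.0 and 67.0 CPM with PBS, 47.3, 47.0 and 49.9 after TNF and 59.5, 68.6 and 73.7 with ACHP. The TNF values were nearly alike, while the ACHP libraries spread to both sides of PBS. Npr3, the clearance receptor for natriuretic peptides, had 47.6, 43.8 and 46.6 CPM, then 36.2, 33.9 and 35.1 after TNF and 49.1, 42.5 and 44.1 with ACHP. Its ACHP libraries lay on both sides of the PBS range, and its fold changes were -0.38 ± 0.06 and 0.36 ± 0.06. Pamr1, a secreted protein with a protease-like domain, went from 7.96, 9.60 and 9.30 CPM to 6.45, 6.76 and 7.01 after TNF and 8.57, 8.33 and 9.85 with ACHP. Further ligand or matrix-bound factors, named after their values were seen, had smaller falls. Inhbb, which encodes an activin and inhibin subunit, stood at 82.7% of PBS with TNF and 98.9% with ACHP. Ltbp3, which holds latent TGF-beta in the matrix, stood at 86.3% and 96.3%, and the heparan sulfate proteoglycan Gpc1 at 82.1% and 109.4%.

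Transcription factors of the AP-1 family, the dimers of Fos and Jun proteins that respond within minutes to growth factors and stress, were represented by Fosb and Jund. Fosb had 5.64, 4.91 and 5.86 CPM with PBS, 3.72, 4.17 and 4.85 after TNF and 5.84, 5.89 and 7.24 with ACHP. Its counts were low, its highest TNF library was close to its lowest PBS library, and 1 ACHP library stood well above the rest. Jund had 59.2, 63.1 and 61.5 CPM with PBS, 52.7, 53.9 and 52.7 after TNF and 67.5, 66.7 and 70.1 with ACHP. Its 3 groups did not overlap at all, with the ACHP libraries the highest, although 52.6% of its exon length is shared with the overlapping gene Gm11175. In a list of 29 immediate early and AP-1 genes, 25 had the PBS minimum, and Fosb and Jund were the only members of the list lowered under the rule. The edgeR test called Junb (0.18 ± 0.05), Klf10 (0.19 ± 0.05) and Ier3 (0.28 ± 0.04) higher with TNF, and Jund alone lower, out of 28 list genes tested. Against TNF, ACHP raised 7 and lowered 1 of these 28, with a list median of 0.13 on the log2 scale against 0.00 over all genes. Dusp1, a phosphatase that switches off MAP kinases and was picked after its values were seen, was at -0.10 ± 0.05 with TNF and 0.46 ± 0.05 with ACHP against TNF (edgeR adjusted p = 0.348 and 9.15e-06).

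**Figure D3:**
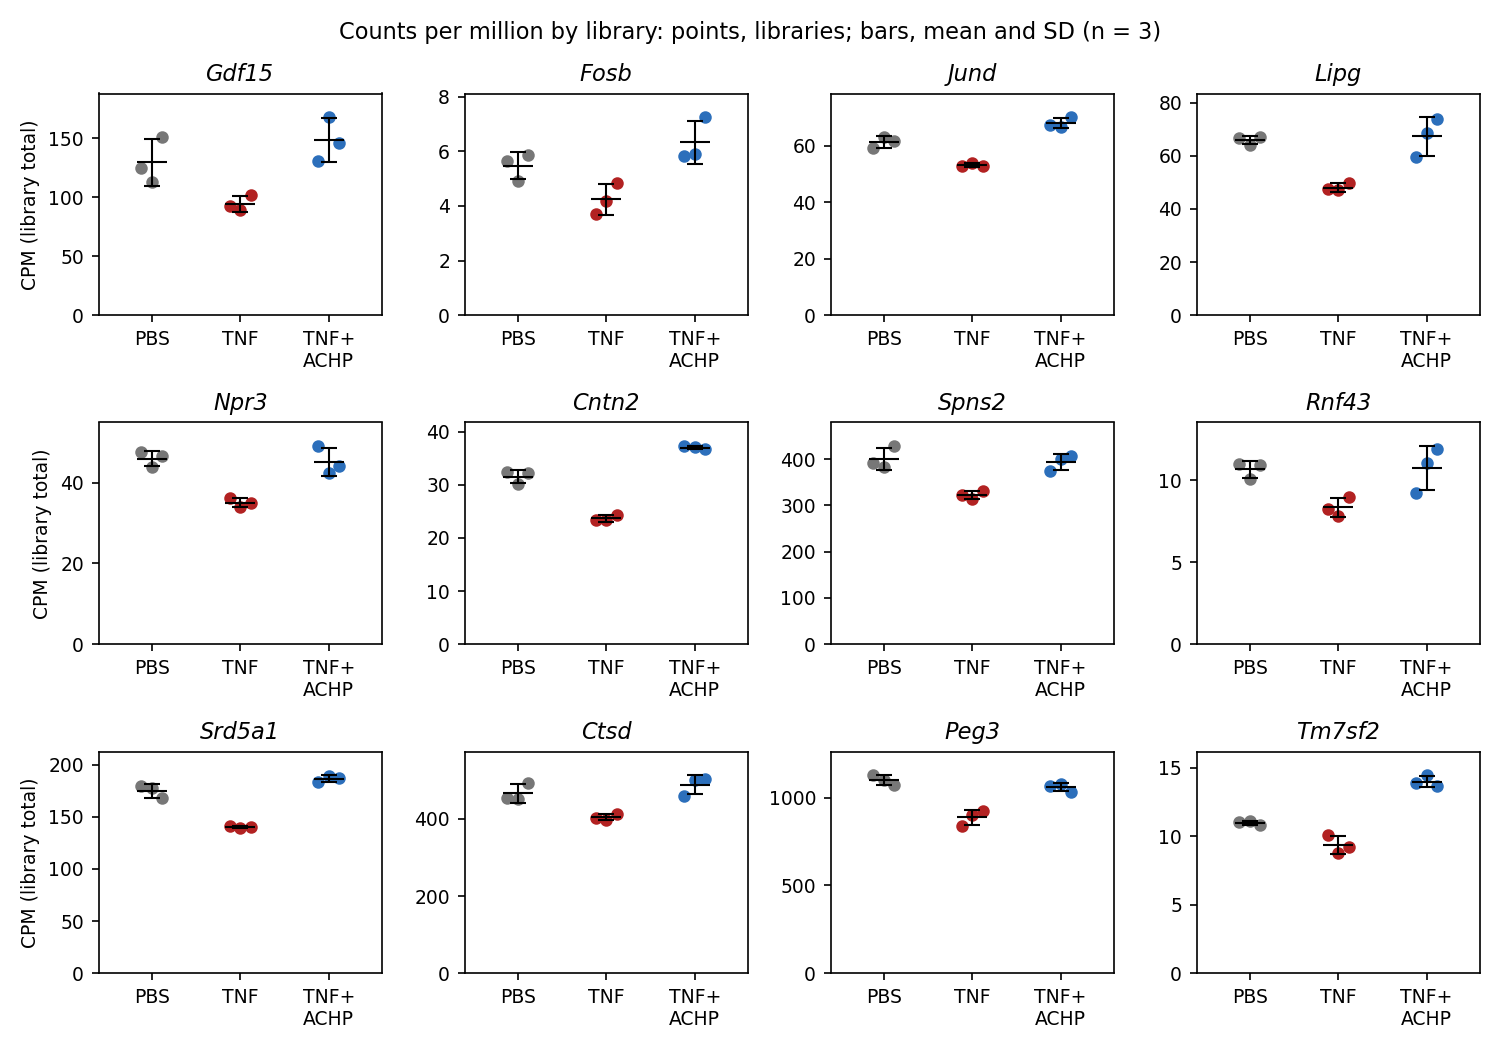
Points give the CPM of each library for 12 of the 138 genes, with PBS in grey, TNF in red and TNF with ACHP in blue; bars are the mean and SD of 3 libraries, and every y axis is linear and starts at 0. The red points lie below all others in each panel, and the blue points of Cntn2, Jund, Srd5a1 and Tm7sf2 lie above all grey points.

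Transporters and channels come next. Spns2, which exports the lipid mediator sphingosine phosphate from cells, had 392.1, 383 and 428 CPM with PBS, 323, 313 and 331 after TNF and 373, 401 and 407 with ACHP. The TNF libraries lay at least 40 CPM below every other library, and the other groups overlapped. Slc40a1, the iron exporter ferroportin, had 46.8, 48.9 and 52.4 CPM, then 43.2, 41.5 and 42.8 after TNF and 48.5, 51.1 and 49.9 with ACHP, so that ACHP fell within the PBS range. Slc25a39, a carrier needed for glutathione import into mitochondria, had 46.8, 49.5 and 54.1 CPM, then 41.4, 45.6 and 43.7 after TNF and 53.9, 53.3 and 54.6 with ACHP. The ACHP values of Slc25a39 sat at the top of the PBS range or above it. Slc22a23, an orphan carrier of the organic ion family, stood at 81.0% of PBS with TNF and 96.2% with ACHP, and the chloride-bicarbonate exchanger Slc4a2 at 86.1% and 96.9%. Piezo1, a cation channel opened by membrane stretch, had 235, 218 and 238 CPM, then 191, 194 and 207 after TNF and 231, 246 and 242 with ACHP. Its TNF libraries lay below both other groups, which overlapped, and 24.6% of its exon length is shared with Ctu2. The 4 carriers were drawn from 200 solute carrier genes with the PBS minimum, of which 18 were lowered and 5 stayed low; the set as a whole was 1.21% of all genes with that minimum. Of 33 genes for renal ion and water transport 19 had the PBS minimum, 5 were lowered and none was among the 138. Scnn1b, a subunit of the epithelial sodium channel, fell by 0.74 on the log2 scale with TNF (edgeR adjusted p = 0.00837) and was at 0.29 ± 0.17 with ACHP against TNF (adjusted p = 0.358).

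Cnksr3 belongs beside that channel, as an aldosterone-induced scaffold that supports its activity. It had 29.2, 27.5 and 27.3 CPM with PBS, 22.2, 19.5 and 21.5 after TNF and 28.0, 27.2 and 26.5 with ACHP, a fall to 75.2% and a return to 97.2%. Its TNF libraries were at least 4 CPM below every other library. Other signalling genes included Rasl11b, a small Ras-like GTPase, with 32.1, 36.0 and 36.8 CPM, 24.4, 26.6 and 28.8 after TNF and 34.0, 39.7 and 41.2 with ACHP. The ACHP libraries of Rasl11b reached from inside the PBS range to above it. The tyrosine phosphatase Ptpn13 had 804, 764 and 702 CPM, 669, 623 and 671 after TNF and 865, 827 and 835 with ACHP. Its ACHP libraries all exceeded its PBS libraries, and its mean stood at 86.5% of PBS with TNF and 111% with ACHP. Arhgap29, a GTPase-activating protein, stood at 85.8% and 96.0%, and the exchange factor Arhgef37, with counts near the lower limit, at 73.6% and 99.0%. Trafd1, a feedback inhibitor of innate immune signalling, was just inside the limit at 86.9%. Named after their values were seen, further signalling genes were Spry1, an inhibitor of receptor tyrosine kinases, at 84.4% and 104%, the prostaglandin E receptor Ptger4 at 82.7% and 102%, and Card10, a scaffold on a route to NF-kB, at 85.6% and 95.3%.

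Rnf43, the ubiquitin ligase that removes Wnt receptors and is itself a Wnt target, had 10.99, 10.0 and 10.9 CPM with PBS, 8.25, 7.82 and 8.99 after TNF and 9.24, 11.1 and 11.9 with ACHP. Its ACHP libraries ran from just above TNF to above PBS. Of 23 Wnt and Notch genes 13 had the PBS minimum and 3 were lowered, and the other 2, Lgr4 and Notch3, stayed low with ACHP by the limits above. Their means were 0.753 and 0.665 of PBS with TNF and 0.817 and 0.814 with ACHP. In both, every ACHP library still lay above every TNF library. Lgr4, a receptor that strengthens Wnt signals, was at -0.40 ± 0.05 with TNF and Notch3 at -0.58 ± 0.12 (edgeR adjusted p = 6.94e-05 and 0.00578). Crim1, a membrane protein that binds BMPs, was the member from 15 Hippo pathway targets and stood at 85.7% and 96.1%. The scaffold Wwc1, at -0.20 ± 0.03 with TNF (edgeR adjusted p = 0.000933), was the other lowered gene of that list. Ccnd2, a D-type cyclin that drives entry into the cycle, had 101, 95.6 and 91.2 CPM, 85.9, 76.7 and 80.4 after TNF and 102, 101 and 99.0 with ACHP. Its TNF libraries were lowest, and the ACHP libraries were level with the highest PBS library. It was the single lowered gene of 27 cell cycle genes, of which edgeR called 12 higher with TNF and Ccnd2 alone lower, with Mki67 at 0.28 ± 0.08 (adjusted p = 0.0369).

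Adhesion and polarity genes covered a wide range of CPM. Ly6a, the surface protein Sca-1, had 783, 765 and 771 CPM with PBS, 667, 643 and 658 after TNF and 741, 750.0 and 782 with ACHP. Its groups were narrow and the TNF libraries lay about 100 CPM below PBS, but Ly6a has close paralogues between which reads can be split. Cntn2, an immunoglobulin-family adhesion protein best known from axons, had 32.3, 30.0 and 32.2 CPM, 23.3, 23.3 and 24.4 after TNF and 37.2, 37.0 and 36.6 with ACHP. Its 3 groups did not overlap and each spanned under 3 CPM, so that the mean went from 75.1% of PBS to 117%. Bcam, a laminin receptor of epithelia, had 243, 243 and 269 CPM, 197, 218 and 214 after TNF and 226, 247 and 256 with ACHP. The polarity protein Llgl2 stood at 84.7% and 102%. Adgre5, the adhesion receptor CD97, had 59.5, 58.3 and 58.4 CPM, 46.7, 42.7 and 49.4 after TNF and 55.9, 56.6 and 59.5 with ACHP, with 24.6% of its exon length shared with Ddx39. Its PBS and ACHP libraries were all within 4 CPM of each other, at least 6 CPM above TNF. Of 33 junction and keratin genes 30 had the PBS minimum, 2 (Cldn8 and Cldn19) were lowered and none was among the 138.

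Among nuclear factors, the paternally expressed zinc finger gene Peg3 had 1128, 1099.7 and 1075 CPM with PBS, 841, 900.4 and 923 after TNF and 1067, 1077 and 1034 with ACHP. Its TNF libraries were at least 100 CPM below every other library, at fold changes of -0.30 ± 0.04 and 0.25 ± 0.04. Phf7, a reader and ubiquitin ligase of histones, had 10.6, 10.3 and 11.2 CPM, 8.53, 8.28 and 7.21 after TNF and 10.9, 10.4 and 11.2 with ACHP. The PBS and ACHP values of Phf7 were interleaved. Zinc finger genes of the Zfp series gave 3 members (Zfp691 at 78.4% and 103%, Zfp185 at 85.4% and 96.3%, Zfp369 at 85.6% and 105%) among 324 with the PBS minimum, of which 12 were lowered. Tada3, a subunit of histone acetyltransferase complexes, stood at 86.8% and 99.5%. Named after their values were seen, the nuclear receptor Nr2f2 had 72.4, 76.6 and 80.7 CPM, 61.5, 59.5 and 60.1 after TNF and 72.9, 81.7 and 70.6 with ACHP. The homeobox genes Hoxd8 and Hoxd9 stood at 84.7% and 86.7% of PBS with TNF, and at 95.04% and 98.0% with ACHP.

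Among enzymes, Srd5a1, the reductase that converts testosterone to dihydrotestosterone, had 179.8, 177 and 168 CPM with PBS, 141, 139 and 141 after TNF and 183, 189 and 187 with ACHP. Each group spanned under 13 CPM, the TNF libraries lay lowest and the ACHP libraries above all PBS libraries. Tm7sf2, a sterol reductase of cholesterol synthesis, had 11.1, 11.1 and 10.8 CPM, 10.1, 8.74 and 9.25 after TNF and 13.9, 14.5 and 13.7 with ACHP, the farthest above PBS of the 138 at 127%. Mvk, mevalonate kinase of the same pathway, had 11.8, 10.6 and 11.9 CPM, 9.40, 9.87 and 8.93 after TNF and 10.1, 10.3 and 12.7 with ACHP, so that 2 of its ACHP libraries were below all PBS libraries. Of 22 cholesterol genes, which include Mvk but not Tm7sf2, edgeR called 11 higher with ACHP against TNF, at a list median of 0.16 on the log2 scale, where the list median with TNF was -0.04.

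Pfkm, a phosphofructokinase of glycolysis, had 20.6, 19.3 and 21.02 CPM with PBS, 18.4, 16.0 and 17.6 after TNF and 18.8, 19.8 and 19.5 with ACHP. Its TNF libraries came within 1 CPM of the PBS and ACHP ranges, and 10.7% of its exon length overlaps Senp1. Of 28 tested glycolysis and hypoxia genes 3 were called lower with TNF (Slc2a1, P4ha1 and Pfkp) and 8 higher with ACHP against TNF. Slc2a1, the glucose transporter GLUT1, was at -0.15 ± 0.04 and 0.38 ± 0.04 (edgeR adjusted p = 0.0309 and 5.20e-06). The lysosomal protease Ctsd had 454, 451 and 494 CPM, 404, 396 and 414 after TNF and 459.7, 501 and 504 with ACHP, and 34.4% of its exon length lies under Gm49369. Its ACHP libraries reached from the PBS range to just above it. Ctsf, another protease of that compartment, stood at 78.7% and 104%, and the acid sphingomyelinase Smpd1, named after its values were seen, at 84.1% and 98.1%. Ctsd was the single lowered gene of 23 autophagy and lysosome genes with the PBS minimum.

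Many of the largest relative falls belonged to genes with low counts. Myo7b, a myosin of the brush border, had 7.68, 6.76 and 7.88 CPM with PBS, 5.25, 4.64 and 5.93 after TNF and 7.17, 7.99 and 6.80 with ACHP. Its groups kept the required gap, with ACHP inside or near the PBS range. Fbxo36, an F-box protein, had 4.30, 3.18 and 3.39 CPM, then 2.24, 2.98 and 2.42 after TNF and 3.40, 3.54 and 4.13 with ACHP. Bicdl2, a dynein adaptor relative, had 5.14, 4.41 and 4.32 CPM, then 2.90, 3.71 and 3.32 after TNF and 5.41, 4.07 and 5.72 with ACHP. In both, 1 PBS and 1 TNF library were under 1 CPM apart, and the standard errors of their fold changes, 0.20 and 0.18, were more than double the median. Fahd2a, Zc3h3, Ptchd4, Lmod1, Klrg2 and Kctd12b stood between 71.7% and 77.8% of PBS with TNF and between 95.5% and 108% with ACHP. Of these, Zc3h3 takes part in export of messenger RNA, Lmod1 seeds actin filaments in smooth muscle, and Ptchd4 is a patched-domain protein. The lowest ratio of all belonged to Gm15500, at 68.8% and 95.5%. It and Eif4a-ps4 (78.3% and 106%) are pseudogenes whose reads may come from near-identical copies, so their values are uncertain.

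Some of the remaining 86 genes, all named after their values were seen, fill out the same roles. Wfs1, a membrane protein of the endoplasmic reticulum, had 69.6, 67.2 and 78.2 CPM with PBS, 54.9, 57.3 and 58.7 after TNF and 65.9, 76.0 and 73.0 with ACHP. Epha1, an ephrin receptor kinase, had 27.5, 28.4 and 27.5 CPM, then 24.4, 23.2 and 22.6 after TNF and 26.7, 30.1 and 27.5 with ACHP. In both genes the PBS and ACHP libraries overlapped at a clear distance from TNF. Adgrl1, an adhesion receptor of the latrophilin family, stood at 79.6% of PBS with TNF and 101% with ACHP, and the potassium channel Kcnk5 at 84.4% and 97.8%. Pink1, the kinase that marks damaged mitochondria, stood at 86.3% and 97.9%. Gpd1, which links glycolysis to lipid synthesis, and Ckb, a creatine kinase, stood at 79.3% and 83.3% with TNF and at 99.3% and 103% with ACHP. The oxysterol receptor Nr1h2 stood at 85.9% and 104%. Hist1h1c, a linker histone, had 74.3, 72.7 and 78.1 CPM, then 59.6, 61.0 and 66.1 after TNF and 70.8, 82.0 and 75.1 with ACHP, and a core histone gene, Hist1h2bc, stood at 86.4% and 95.8%. Bbs2 and Evc, which like Wdr34 act at the cilium, stood at 81.7% and 86.8% with TNF and at 106% and 98.2% with ACHP.

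In 65 of the 138 genes the ACHP mean was above the PBS mean and in 73 at or below it, and in 130 the libraries of both groups overlapped. The ACHP libraries all exceeded the PBS libraries in 6 genes: Cntn2, Wdr34, Srd5a1, Tm7sf2, Ptpn13 and Jund. Wdr34, part of the dynein motor of cilia, had 9.23, 8.82 and 10.3 CPM with PBS, 7.27, 6.89 and 8.16 after TNF and 10.9, 11.3 and 10.8 with ACHP, a mean of 117% of PBS. The ACHP libraries were all below PBS in Ermp1 and Dcun1d4, whose means were 95.4% and 95.7% of PBS. Of all genes tested with ACHP against PBS, edgeR called 2.18% higher and 3.87% lower, and its only calls among the 138 were 4 higher (Cntn2, Ptpn13, Jund and Tm7sf2), with 8 at an unadjusted p under 0.05. The rule kept out genes with an ACHP mean under 0.95 of PBS, so no direction is read from this. The difference for Tm7sf2 was 0.36 ± 0.09 and for Cntn2 0.24 ± 0.06 on the log2 scale.

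The p53 list was the other list with a member among its genes. Gdf15 was the single lowered gene of 23 p53 targets, of which edgeR called Mdm2 (0.22), Plk2 (0.21) and Pmaip1 (0.12) higher with TNF and Gdf15 alone lower. No member came from the lists of TGF-beta and BMP genes (25 with the PBS minimum, 4 lowered), collagens and matrix (23, 4 lowered), antioxidant genes (21, 3 lowered), receptor tyrosine kinases and ligands (27, 5 lowered), ATF4 targets (24, 1 lowered) or heat shock genes (22, 1 lowered). The circadian list (14) and the fatty acid oxidation list (16) had 0 lowered genes. None of the 138 was in any of 11 lists of cell type markers, of which none had more than 10 genes with the PBS minimum. The set was 1.21% of all genes with that minimum, so nothing is read from a list without a member, here or above.

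Markers of several cell types differed between the groups. Summed over 20 neuron genes, the level was 38.0, 156 and 125 CPM in the PBS libraries, 68.6 to 107 with TNF and 31.8 to 33.6 with ACHP, and edgeR called 13 of the 20 lower with ACHP against TNF. The 8 astrocyte genes summed to 149, 209 and 207 CPM in the PBS libraries, 192 to 201 with TNF and 147 to 153 with ACHP. The 8 oligodendrocyte genes summed to 932 to 1026, 892 to 927 and 769 to 804. In each of these lists edgeR called 4 of 6 tested genes lower with ACHP against TNF. The 12 macrophage genes summed to 40.2 to 43.0 CPM with PBS, 42.4 to 44.8 with TNF and 24.3 to 26.0 with ACHP, and the 7 fibroblast genes to 241 to 259, 190 to 204 and 181 to 187. Proximal tubule markers summed to 45.6 to 49.3, 31.4 to 35.8 and 33.3 to 37.0 CPM, and their defining genes Slc34a1, Slc5a2 and Hnf4a were under 0.5 CPM with PBS, as were Aqp2, Avpr2 and Aqp3 of the collecting duct. None of these sums was higher with ACHP than the top of the TNF range, except for proximal tubule at its upper end. The 5 podocyte markers did shift the way of the 138 genes, from 137 to 155 CPM with PBS to 125 to 130 with TNF and 133 to 140 with ACHP. Whether these sums follow the cell mixture was not tested, nor was any part of such a mixture in the return with ACHP. The fit with a neuron term cannot separate such a part, because all TNF libraries and no ACHP library carry that term.

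Base composition moved with the set. The median GC content of the transcripts was 53.8% for the 138 genes, 49.3% for all genes with the PBS minimum and 48.9% for the 232 that stayed low. Across 5 equal groups of genes from low to high GC content, 17, 19, 17, 25 and 60 of the 138 were found, or 0.748% of the genes in the lowest group and 2.64% in the highest. The libraries differed in the same respect: the median log2 level of the highest GC group minus that of the lowest was -0.05, -0.07 and 0.03 in the PBS libraries, -0.06, -0.04 and -0.00 with TNF, and -0.00, 0.08 and 0.11 with ACHP. When the GC trend of each library was taken out, a step added after the data were seen, the rule found 107 genes, 86 of them among the 138, spread as 23, 23, 21, 16 and 24. All 138 kept TNF below PBS and ACHP above TNF in their means, with medians of 0.844 and 1.18. The genes had been chosen for both differences, so nothing is read from this. The 52 that no longer met the rule include Spns2, Slc22a23, Bcam, Llgl2, Piezo1, Mvk, Pfkm, Jund, Ctsd, Slc4a2, Slc25a39, Zfp369 and Tada3.

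**Figure D4:**
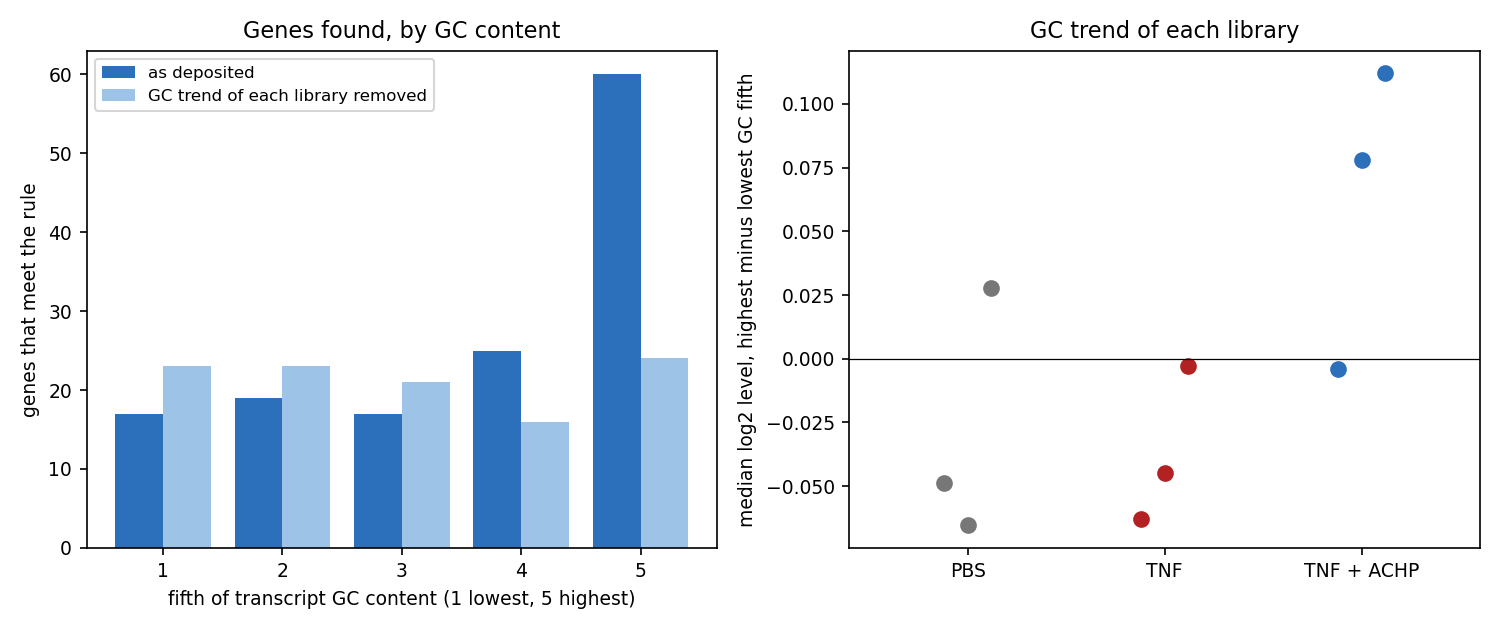
Left, number of genes that met the rule in each of 5 equal groups by transcript GC content, for CPM as deposited (dark) and with each library's GC trend removed (light). Right, for each library, the median log2 level of the highest GC group minus that of the lowest; 60 genes fall in the highest group as deposited and 24 after removal, and ACHP libraries 2 and 3 have the highest differences, 0.08 and 0.11.

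The pattern was also looked at in libraries that took no part in choosing genes. With the replicates numbered 1 left out of all groups, the rule chose 332 genes, and in the left-out libraries 212 of them (63.9%) had TNF below PBS and ACHP above TNF, against 34.7% of all 11473 genes with the PBS minimum. With number 2 left out it was 153 of 222 (68.9%) against 37.2%, and with number 3 left out 184 of 257 (71.6%) against 37.2%. The size was smaller there than in the libraries used for choosing: the median TNF-to-PBS ratio in the left-out libraries was 0.909, 0.896 and 0.884, and the median ACHP-to-TNF ratio 1.09, 1.16 and 1.098. Each left-out TNF library enters both of its ratios. The left-out libraries share with those used for choosing the group differences in GC trend and marker sums given above. The labels do not say that the replicates came from separate mice, so nothing is read from these shares about other cultures. These sets overlap the 138: 32.8%, 41.4% and 32.7% of the chosen genes were among the 138, and 79.0%, 66.7% and 60.9% of the 138 were among the chosen genes.

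**Figure D5:**
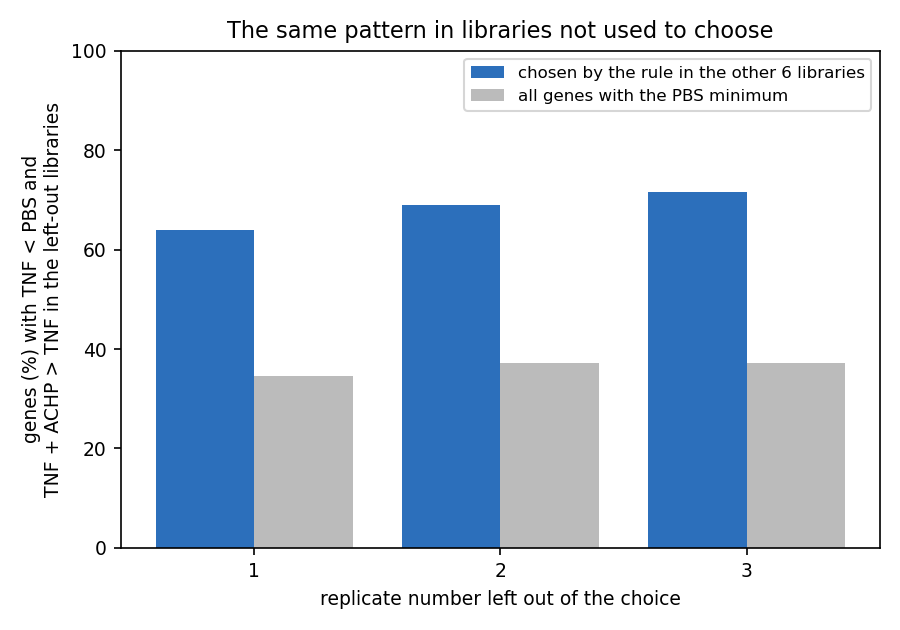
Bars give the percent of genes with TNF below PBS and ACHP above TNF in the 3 libraries of 1 replicate number, for genes chosen by the rule in the other 6 libraries (blue) and for all genes with the PBS minimum (grey). The blue bars stand at 63.9%, 68.9% and 71.6% and the grey bars at 34.7%, 37.2% and 37.2%.

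The median exon length of the 138 genes was 4265 bases and their median span 23.4 kb, against 4681 bases and 25.2 kb for all genes with the PBS minimum, and 5761 bases and 52.7 kb for the 232 that stayed low. More than 10% of the exon length overlapped another gene in 23 of them (16.7%, against 12.8% of all), where reads may be lost or assigned unevenly. The genes lay on 19 autosomes and the X chromosome, with at most 14 on any (chromosome 5). In 7 pairs, no other gene with the PBS minimum lay between both members: Dcun1d2 and Tmco3 on chromosome 8 (0.059 kb apart), Lims2 and Myo7b (0.615 kb), Rnf32 and Lmbr1 on chromosome 5 (1.34 kb), and 4 pairs further apart, among them the related adhesion receptors Adgre5 and Adgrl1 on chromosome 8.

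Promoter sequences were available from RefSeq (GRCm38.p6) for 105 of the 138 genes, as 131 windows of 300 bases that run from 250 before to 50 after a listed start. These 4 windows are shown because the genes are main members above, or, for Bcat1, because it holds an NF-kB match; all are written 5′ to 3′ on the gene's strand, which is the minus strand for each. Capitals mark matches to the E-box, CRE, AP-1, TATA box and NF-kB motifs, each spelled out after the windows and searched on both strands. The windows lie at chr8:70632046-70632345 (Gdf15), chr7:6730370-6730669 (Peg3), chr7:142387778-142388077 (Ctsd) and chr6:145076108-145076407 (Bcat1).
Gdf15: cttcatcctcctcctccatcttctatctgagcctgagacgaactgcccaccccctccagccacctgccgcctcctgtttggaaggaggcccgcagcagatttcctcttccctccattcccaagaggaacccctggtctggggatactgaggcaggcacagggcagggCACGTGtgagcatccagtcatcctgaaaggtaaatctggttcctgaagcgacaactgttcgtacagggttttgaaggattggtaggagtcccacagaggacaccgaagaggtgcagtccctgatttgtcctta
Peg3: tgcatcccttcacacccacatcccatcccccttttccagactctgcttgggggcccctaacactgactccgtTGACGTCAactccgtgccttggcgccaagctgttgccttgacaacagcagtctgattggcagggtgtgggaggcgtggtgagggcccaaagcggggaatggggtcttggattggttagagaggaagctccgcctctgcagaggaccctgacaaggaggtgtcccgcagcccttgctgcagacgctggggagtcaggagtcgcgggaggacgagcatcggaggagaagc
Ctsd: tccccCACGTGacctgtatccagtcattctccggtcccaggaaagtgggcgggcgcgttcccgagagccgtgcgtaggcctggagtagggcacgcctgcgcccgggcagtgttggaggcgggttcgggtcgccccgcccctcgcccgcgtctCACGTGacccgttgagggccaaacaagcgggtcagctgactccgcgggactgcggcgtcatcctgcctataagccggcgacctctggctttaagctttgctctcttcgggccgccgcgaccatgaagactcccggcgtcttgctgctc
Bcat1: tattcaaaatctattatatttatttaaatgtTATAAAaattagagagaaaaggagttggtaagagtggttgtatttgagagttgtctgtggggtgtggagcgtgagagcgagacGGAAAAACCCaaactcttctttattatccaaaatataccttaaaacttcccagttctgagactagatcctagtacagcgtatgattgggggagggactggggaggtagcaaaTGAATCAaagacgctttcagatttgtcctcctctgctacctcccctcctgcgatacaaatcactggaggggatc

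Gdf15 has 2 windows, of which 1 had no match to any motif searched; the printed one holds an E-box (CACGTG) 83 bases before the start, and the Ctsd window holds E-boxes 245 and 98 bases before it. The Peg3 window has a CRE (TGACGTCA) 178 bases before the start. The Bcat1 window has an AP-1 match (TGANTCA) 24 bases before the start and a TATA box (TATAAA) 219 bases before it. Bcat1 has 1 further window, also without a match to any motif searched. The printed window also has an NF-kB match (3 G, any 2 bases, 3 T and 2 C), which reads GGAAAAACCC on this strand, 136 bases before the start. Bcat1, which starts the breakdown of branched amino acids and was picked for this match after the search, had 16.1, 20.0 and 16.6 CPM with PBS, 14.9, 15.8 and 13.9 after TNF and 16.0, 16.7 and 17.8 with ACHP. That was the only one of the 131 windows (0.763%) with the NF-kB letters, against 1.67% of the windows of all genes with the PBS minimum, 2.46% for the 232 that stayed low and 7.01% for the 167 that were raised and brought back. The E-box was in 15 windows (11.5%, against 9.94% of all with the PBS minimum, 6.15% of those that stayed low and 1.91% of those raised and brought back). AP-1 letters were in 6 windows (4.58% against 4.89%), the CRE in 4 (3.05% against 3.14%), the TATA box in 7 (5.34% against 6.69%) and the ETS motif CCGGAAGT in 3 (2.29% against 8.48%). An ATF4 and C/EBP composite, TGATGNAA, was in 7 (5.34% against 2.10%), the GC box GGGCGG in 92 (70.2% against 64.2%) and CCAAT in 52 (39.7% against 37.4%), the last 2 not being marked in the printed windows. These counts are of windows, not genes, and each of the overlapping windows of Trafd1 held the ATF4 and C/EBP letters. The GC content of the windows was the same as for all genes with the PBS minimum (median 61.3% in both). A match is a run of letters, and no factor's binding was measured. Only 1 spelling of each motif, NF-kB included, was searched, so sites with other letters were not counted.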

How the data were processed

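RNA of 9 libraries in 3 groups of 3 was sequenced. Per the submitters' processing notes the authors used STAR, featureCounts and DESeq2 with mm10. Raw counts for each Ensembl gene were deposited as 1 table; per the file headers they were made with featureCounts 2.0.1 on Ensembl 109 annotation for GRCm39, so gene coordinates are on GRCm39. Total counts were 14194295 to 20892176 per library. Sample titles gave the groups and replicate numbers. Symbols matched 52029 of 57010 gene identifiers, which hold 99.6% of the counts, and all 138 genes. The rule was applied to CPM from library totals, with no pseudocount. Counts were also fitted with edgeR 4.0.16 in R 4.3.3: filterByExpr (14747 genes kept), TMM factors (0.993 to 1.01), and quasi-likelihood fits of 3 group means over all libraries; the biological coefficient of variation was 4.01%. Adjusted p-values are Benjamini-Hochberg over all genes tested. Standard errors were derived from the test, as the absolute log2 fold change divided by the square root of the F statistic. The fit was tested on simulated data.

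The members, the 33 gene lists and the alternatives were chosen with earlier results of these data known. Genes with plain symbols were named if they were among the 25 lowest TNF-to-PBS ratios, the 15 highest PBS means, up to 6 members of a list, the 3 genes on each side of the fall limit or the 5 highest ACHP-to-PBS ratios; called list genes outside the set were named by their change with TNF, and every other gene named was picked after its values were seen, including those at the return limit, those below PBS with ACHP and the neighbouring pairs. DESeq2 1.42.0, other scalings, filters and limits, each library left out, a replicate block, neuron transcripts as a term and removal of each library's GC trend were the alternatives. Replicates were not copies of each other: within groups chi-square over its degrees of freedom was 1.87 to 6.53.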

Additional observations from a re-analysis of the deposited data

How the results depend on the processing

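The number of genes found was 39 with a TNF mean of at most 0.80 of PBS, 215 with a return to at least 0.90 and 65 with a return to at least the PBS mean, against 138. It was 121 with TMM scaling (112 shared with the 138), 124 with RLE scaling (116 shared) and 107 with the GC trend removed (added after the data were seen). Leaving out 1 library, or 1 replicate number in all groups, gave between 123 and 332 genes. The calls of edgeR's test over all genes ranged, with 1 library left out, from 216 to 478 for lower with TNF (429), from 157 to 527 for higher with ACHP against TNF (400) and from 494 to 988 for ACHP against PBS (891). Counts lower by over 1.5 times were 216, 224 and 279 without TNF library 1, 2 and 3 for the first. For the next they were 181, 157 and 258 without those libraries and 188 and 212 without ACHP library 2 and 3. For the last they were 511 without PBS library 2 and 494 without ACHP library 3. Among the 138 genes they ranged from 33 to 67 for lower with TNF (66) and from 42 to 86 for higher with ACHP (80). DESeq2 called 248 genes higher with ACHP against TNF, 45 of the 138 among them. With a term for libraries with neuron transcripts these were 44 and 15 and the calls against PBS 162; with the log2 neuron sum as covariate they were 85, 20 and 110. In both fits ACHP and TNF libraries differ in the neuron term itself, so nothing is read from these drops. For the other changes the cause was not tested. With the GC trend removed, 253 genes were higher with ACHP, 60 of the 138 among them. The remaining alternatives kept each count within 1.5 times. No member named by the rules stated under processing turned its direction in TNF against PBS or in ACHP against TNF under any alternative. Members picked after their values were seen were not checked. The members were chosen for these directions, so nothing is read from this. Of 104 values for the genes named by those rules, 87 stayed on the same side of the threshold with DESeq2. It was 96 with the GC trend removed and 73 with the neuron term.

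The correlations of same-numbered libraries' deviations from their group means ran from -0.16 to 0.18, and those of other-numbered libraries from -0.24 to 0.30. With 3 libraries a group, these values cannot settle whether the replicate numbers pair the samples. With a replicate block edgeR called 433 genes lower with TNF and 443 higher with ACHP against TNF, with 64 and 80 of the 138 among them, and 988 against PBS. The 3 libraries a group and counts from 29 upward limit the precision of the rarest members.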
